A study of Mus musculus with 35 samples.

Results

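Interferon-stimulated and antigen-presentation genes were followed across the RNA-seq data of a study of TET3, an enzyme that oxidizes the methyl group of 5-methylcytosine. The 9 genes were Isg15, Ifit1, Ifit3, Irf7, Bst2, Ifih1, B2m, H2-K1 and H2-D1, chosen by symbol from 18930 genes listed in at least 1 of 3 deposited tables. Of these, 8 stood in all 3 tables, and Ifit3 was listed in the Tet3-CD table alone. All cells were male V6.5 mouse embryonic stem cells (ESCs) of mixed 129/C57BL/6 background. They were differentiated to neuroectoderm (NE) cells for 72 h without LIF and with 1 µM retinoic acid (RA).

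The groups were Tet3+/+, Tet3m/m (substitutions that abolish the catalytic activity of TET3) and Tet3-/- (exon 4 deleted). The study reports less Tet3 transcript in Tet3m/m cells and holds it possible that the mutant protein is reduced too. Day 3 NE cells without a vector comprised 3 Tet3+/+, 3 Tet3m/m and 2 Tet3-/- samples. In the Dnmt1 experiment, ESCs of each genotype received a pCAG-myc empty vector (EV) or myc-tagged Dnmt1, the maintenance DNA methyltransferase, and blasticidin before collection, with 2 samples per genotype and vector. In the Tet3-CD experiment, differentiating cells received a FUW-HA-2A-tdTomato EV or an HA-tagged TET3 catalytic domain (Tet3-CD), with 1 sample per genotype and vector. The methods of the study place the collection of the Tet3-CD samples later than the labels do. Per the study, the day 3 samples of each genotype were separate clones, so p-values there measure the spread between clones. For the vector experiments nothing in the labels says which replicates were separate cultures, and p-values measure the spread between these samples, which may be technical. In all samples the cells came from lines kept on feeder fibroblasts and plated apart from them before differentiation.

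As background, interferons bind receptors at the cell surface, activate Janus kinases and switch on many genes through transcription factors such as STAT2 and IRF9, which act at a promoter motif called the interferon-stimulated response element. IFIH1 (MDA5) senses long double-stranded RNA in the cytoplasm and IRF7 is the transcription factor that amplifies type I interferon output. ISG15 is a ubiquitin-like modifier, IFIT1 and IFIT3 act together on foreign RNA, and BST2 (tetherin) holds budding virions at the membrane. H2-K1 and H2-D1 are class I heavy chains that present peptides on the cell surface together with the light chain β2-microglobulin, the product of B2m. Pluripotent cells are known for a weak interferon response and low class I presentation, which strengthen as cells differentiate.

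Promoter sequences are shown first because 8 of the 9 genes carry a match to at least 1 of 2 response motifs there. Windows from 250 bases before to 50 bases after the annotated start were taken from RefSeq (GRCm38.p6), and all 9 genes matched. The motif GAAANNGAAA, searched on both strands, was found in the windows of 6 of the 9 genes and in those of 3.99% of 27025 genes. The shorter motif AAGTGAAA was found in 4 of the 9 and in 1.91% of all genes, and in Ifit1 and Ifit3 it overlaps the first match of the longer one. Neither motif lies in the Irf7 window. A match describes letters and was not tested as a binding site. Capitals mark the matches, and each line reads 5′ to 3′ along the strand of the gene.
Isg15 (chr4:156200855-156200916, minus strand): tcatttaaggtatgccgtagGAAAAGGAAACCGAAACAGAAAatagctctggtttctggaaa
Ifit1 (chr19:34640765-34640833, plus strand): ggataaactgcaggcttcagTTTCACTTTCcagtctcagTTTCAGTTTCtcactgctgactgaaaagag
Ifit3 (chr19:34583353-34583436, plus strand): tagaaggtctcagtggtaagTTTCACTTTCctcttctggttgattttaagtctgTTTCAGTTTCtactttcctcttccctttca
Bst2 (chr8:71537567-71537622, minus strand): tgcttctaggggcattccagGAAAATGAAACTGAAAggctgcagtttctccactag
Ifih1 (chr2:62646206-62646235, minus strand): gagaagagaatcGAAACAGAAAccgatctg
B2m (chr2:122147528-122147577, plus strand): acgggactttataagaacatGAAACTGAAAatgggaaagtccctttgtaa
H2-K1 (chr17:34000410-34000457, minus strand): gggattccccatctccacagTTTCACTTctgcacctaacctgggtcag
H2-D1 (chr17:35262924-35262971, plus strand): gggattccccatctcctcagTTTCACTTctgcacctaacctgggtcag
The 3 Isg15 matches run into each other, as do the 2 in Bst2. In Ifih1 the match lies after the start, at positions 32 to 41. The H2-K1 and H2-D1 stretches are nearly the same letters, and reads from these and other class I genes, like those of the Ifit family, may be shared between copies, so their counts are less certain than those of single-copy genes. The number of CpG sites in the windows of 300 bases was 1 in Ifit3, 4 in Ifit1, 6 in Isg15, 7 in Irf7, 11 in Bst2, 14 in Ifih1, B2m and H2-K1 and 19 in H2-D1, against a median of 7 over all windows.

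Recovered reads per sample ranged from 31155842 to 50845950 over the 3 experiments. Tet3 was lower on day 3 in Tet3m/m (log2 change -1.05) and in Tet3-/- cells (-1.21). The gene-level count includes exons other than the deleted one. In the Dnmt1 experiment with the EV it was lower by 1.53 on the log2 scale in Tet3m/m cells and by 0.24 in Tet3-/- cells. Dnmt1 transfection raised Dnmt1 by 0.64, 0.90 and 1.06 on the log2 scale in Tet3+/+, Tet3m/m and Tet3-/- cells. Tet3-CD samples had 1.14, 2.83 and 1.33 times the Tet3 count of their EV sample in the same order. All 8 neuroectoderm markers were listed in each table, with normalized counts that summed to 17669 to 24352 in Tet3+/+, 14046 to 18624 in Tet3m/m and 23733 to 27345 in Tet3-/- cells on day 3. A sum follows its most abundant markers, and the median log2 change of the 8 was negative in both mutants, as given below. With the EV of the Dnmt1 experiment, pluripotency markers summed to normalized counts of 37207 to 37230 in Tet3+/+, 98355 to 100920 in Tet3m/m and 5893 to 6233 in Tet3-/- cells, and endoderm markers to 56460 to 60803, 173648 to 195378 and 16256 to 16800. In the Tet3-CD experiment the endoderm sum was 250233 in the Tet3+/+ EV sample, against 43326 in Tet3m/m and 55360 in Tet3-/-, so the marker sums differed between genotypes. In bulk RNA, fewer cells of a type and less RNA per cell cannot be told apart.

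To compare genotypes without any vector, the day 3 samples were examined first. Bst2, Isg15 and Ifit1 had lower counts in all 3 Tet3m/m samples than in any Tet3+/+ sample, but Bst2 alone passed the test, while the class I genes and B2m had overlapping values in both. Tet3m/m and Tet3+/+ samples did not overlap for 36.7% of all genes, so separation alone did not set these genes apart. All values below are normalized counts, that is reads divided by the DESeq2 size factor of the sample. A gene was called, in either direction, when its adjusted p was below 0.05 and its change exceeded 1.5-fold.

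**Figure D1:**
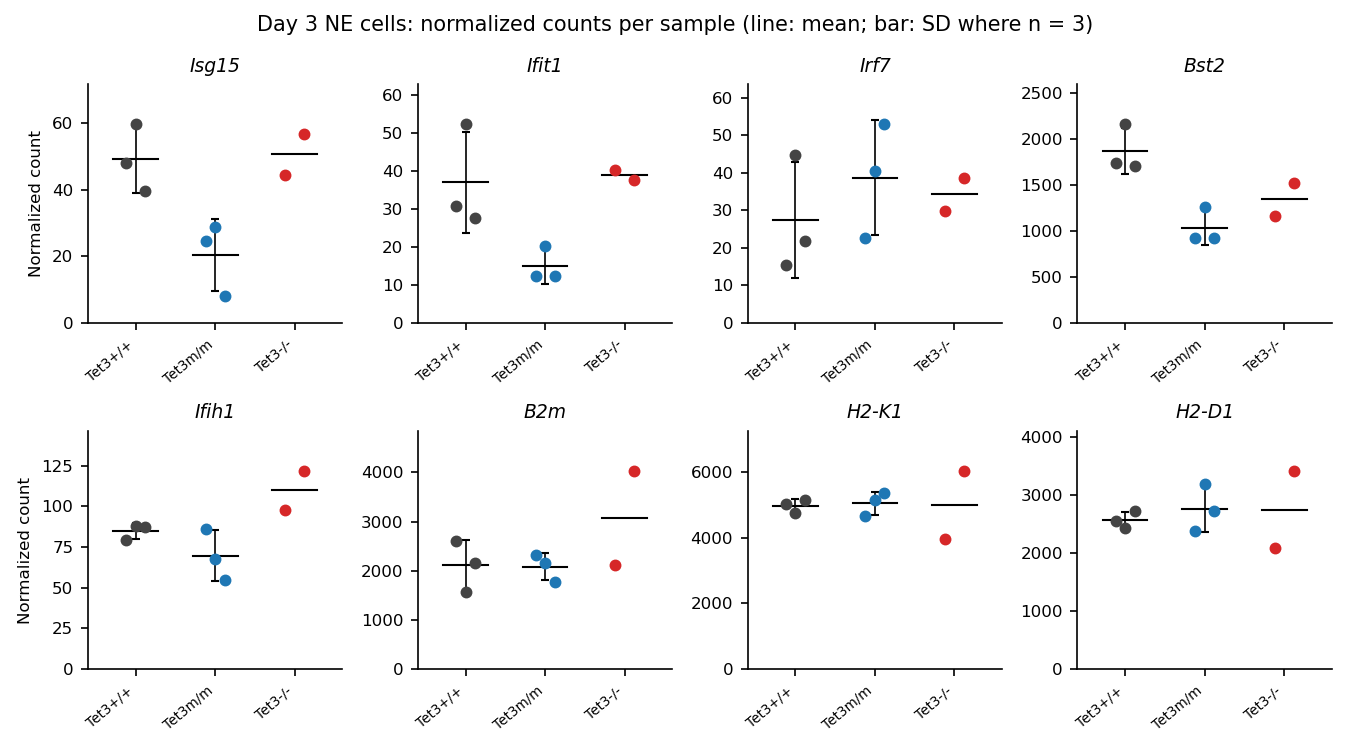
Normalized counts of 8 genes in each day 3 sample (y axis, from 0) by genotype (x axis), with the group mean as a line and the SD as a bar where n = 3. The 3 Tet3m/m samples lie below the Tet3+/+ samples for Isg15, Ifit1 and Bst2, and the groups overlap for Irf7, Ifih1, B2m, H2-K1 and H2-D1 in that pair of genotypes.

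Bst2 was counted at 1738, 2165 and 1714 in Tet3+/+, at 928, 1259 and 925 in Tet3m/m and at 1166 and 1522 in Tet3-/- cells. Every Tet3m/m and Tet3-/- sample lay below every Tet3+/+ sample. Bst2 was thus downregulated in Tet3m/m cells by 0.86 on the log2 scale (SE 0.16, adjusted p = 0.00589), whereas the lower level in Tet3-/- cells (log2 change -0.48, SE 0.18, adjusted p = 0.167) did not pass. Bst2 lies on chromosome 8, whose genes were shifted as a whole: their median log2 ratio to the other Tet3+/+ samples was -0.38 to -0.30 in Tet3m/m and -0.32 in Tet3-/- replicate 2, but 0.17 in Tet3-/- replicate 1. The Tet3+/+ samples themselves were at -0.12, -0.07 and 0.20. After centring each chromosome, the Bst2 change in Tet3m/m was -0.51 (adjusted p = 0.155) and was no longer called. Genes of the chromosomes of the other 8 genes showed no such shift, with medians between -0.07 and 0.06 in all 26 samples. The single Tet3+/+ EV sample of the Tet3-CD experiment was its own reference, so its medians are 0 by construction.

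**Figure D2:**
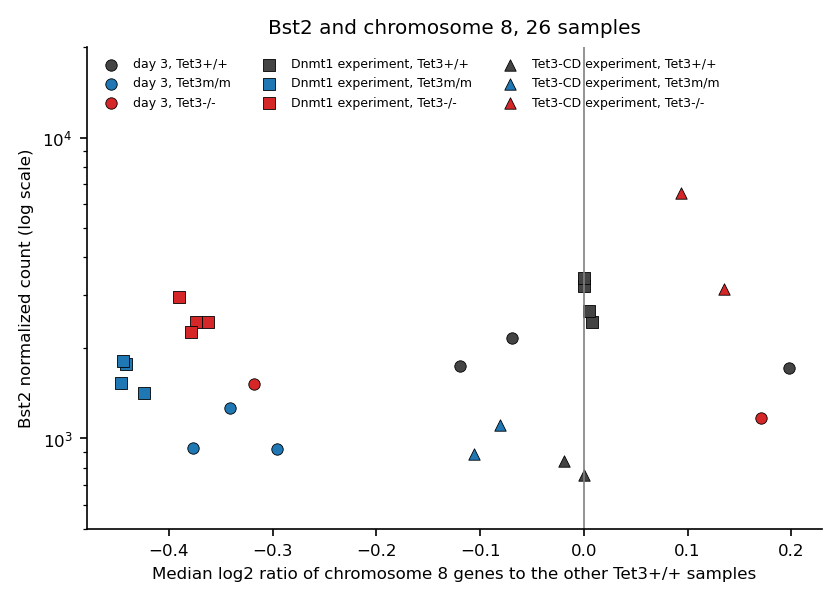
Normalized count of Bst2 (y axis, log scale) against the median log2 ratio of chromosome 8 genes to the other Tet3+/+ samples (without a vector or with the EV) of the same experiment (x axis) in 26 samples, by experiment (symbol) and genotype (colour). The Tet3-CD experiment has a single Tet3+/+ EV sample, which is its own reference and lies at 0 by construction. Tet3m/m samples of the day 3 and Dnmt1 experiments lie at -0.45 to -0.30, and the Tet3-/- EV sample of the Tet3-CD experiment has the highest Bst2 count, 6542, at a chromosome 8 ratio of 0.09.

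Isg15 was counted at 48.2, 59.8 and 39.5 in Tet3+/+, at 24.6, 28.7 and 8.15 in Tet3m/m and at 44.5 and 56.9 in Tet3-/- cells. The Tet3m/m samples were low and the other genotypes overlapped. With 8 to 64 reads per sample, the change in Tet3m/m (log2 change -1.38, SE 0.48, adjusted p = 0.0837) did not pass. Ifit1 followed the same order, at 30.8, 52.3 and 27.7 in Tet3+/+, 12.3, 20.2 and 12.2 in Tet3m/m and 40.3 and 37.6 in Tet3-/- cells. Its log2 change in Tet3m/m was -1.24 (SE 0.42, adjusted p = 0.0792). Tet3m/m thus lay below both other genotypes for these genes, and the differences between Tet3-/- and Tet3m/m cells, 1.43 (adjusted p = 0.108) and 1.36 (adjusted p = 0.0856), did not pass either.

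The sensor Ifih1 was counted at 79.0 to 87.8 in Tet3+/+, 55.0 to 86.0 in Tet3m/m and 97.6 and 121.8 in Tet3-/- cells, which lay above all others. The difference between Tet3-/- and Tet3m/m was 0.67 on the log2 scale (SE 0.30, adjusted p = 0.173). Irf7 ranged from 15.4 to 53.0 with all 3 genotypes overlapping. H2-K1 had means of 4965 ± 209 (SD, n = 3) in Tet3+/+, 5045 ± 353 (SD, n = 3) in Tet3m/m and values of 3966 and 6032 in Tet3-/- cells. H2-D1 had means of 2573 ± 142 and 2770 ± 402 (SD, n = 3 each) and values of 2083 and 3422. B2m was counted at 1569 to 2602 in Tet3+/+, 1775 to 2317 in Tet3m/m and at 2117 and 4036 in Tet3-/- cells. For these 3 genes Tet3-/- replicate 2 was the higher of its pair and lay above every sample of the other genotypes.

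Of the 8 genes tested on day 3, 1 was called in Tet3m/m, where 10.2% of 17915 genes were called (5.06% higher and 5.19% lower), and 0 in Tet3-/-, where 0.642% were (0.458% higher and 0.184% lower). The edgeR and DESeq2 tests also called 0 in Tet3-/-, and 1 of the 8 had an unadjusted p under 0.05. Groups did not overlap for 3 genes in Tet3m/m and 2 in Tet3-/-, against 36.7% and 41.2% of all genes. Between Tet3-/- and Tet3m/m cells 0 of 8 were called by limma, edgeR and DESeq2, with 3 at an unadjusted p under 0.05, against 9.73% of all genes called (5.41% higher and 4.33% lower). Groups did not overlap for 3 of the 8 in that pair, against 41.0% of all genes.

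Other genes of the pathway were called in both directions on day 3. Of 54 further interferon-stimulated effectors tested in Tet3m/m, 4 were called higher and 3 lower, with a median log2 change of 0.05 against 0.00 over all genes. Of all genes, 5.06% were called higher and 5.19% lower there, so the effector counts alone did not set this list apart. Slfn2 (2.10), Slfn5 (1.95) and Ifitm1 (1.79), which restrict cell growth or virus entry, were the largest rises. The largest falls were Rtp4 (-3.19), Rsad2 (-2.16), the viperin gene, and Helz2 (-0.94). In the peptide-loading branch, Tap1, a subunit of the peptide transporter, was counted at 1726 to 1990 in Tet3+/+ and 970 to 1390 in Tet3m/m cells and fell by 0.72 (adjusted p = 0.00765). It was the only 1 of 33 further class I pathway genes called lower, while the nonclassical gene H2-M5 (1.75) was called higher. Among 25 signalling genes, the transcription factor Irf8 was called lower (-0.89). In Tet3-/- against Tet3+/+ cells 0 of the 54 effectors, 33 class I and 25 signalling genes were called by limma or edgeR, with 12, 7 and 5 at an unadjusted p under 0.05. DESeq2 called 3 effectors higher, 1 class I gene higher and 1 lower, and 1 signalling gene lower there. Against Tet3m/m, Tet3-/- cells had higher Tap1 (1.01) and the loading chaperone Tapbp (0.77). In that pair 2 of the 54 effectors were called higher and 6 lower, led by Rsad2 (2.90) and Oasl1 (-3.39), against 5.41% and 4.33% of all genes. Of 19 sensors and adaptors, 2 were called higher and 0 lower in Tet3m/m cells (Cgas, 1.07, and Aim2, 1.00, both sensors of cytoplasmic DNA). Of 8 class II genes, 2 were called higher and 0 lower there (H2-Aa, 2.03, and the invariant chain gene Cd74, 0.97). Of 17 interferon ligand genes, 0 were listed in any of the 3 tables.

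Leukocyte markers moved with Tet3m/m on day 3: 5 of 12 were listed, and their sum was 941 to 1410 in Tet3m/m, 603 to 636 in Tet3+/+ and 659 to 822 in Tet3-/- cells. The change rested on Laptm5 (1.95) and Cd68 (0.77). The defining markers Ptprc, Adgre1, Itgam and Tyrobp were not listed. Fibroblast markers, of which 11 of 12 were listed, summed to 21239 to 33234 in Tet3+/+, 15947 to 26480 in Tet3m/m and 49224 to 53765 in Tet3-/- cells. Of 8 neuroectoderm markers, 5 were called lower and 0 higher in Tet3m/m cells (median log2 change -1.08) and 1 lower and 1 higher in Tet3-/- cells (-1.06). Of 9 endoderm markers, 2 were called higher and 0 lower in Tet3m/m cells, with sums of 20227 to 36482 against 13700 to 18336 in Tet3+/+ and 11608 to 14235 in Tet3-/- cells. The part of these markers in the gene values was not tested.

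Next, genotypes were compared within the EV samples of the Dnmt1 experiment, which went through transfection and blasticidin. In Tet3-/- cells, Ifih1, Isg15, Ifit1, B2m and H2-D1 were upregulated, whereas in Tet3m/m cells Ifih1 was upregulated and Bst2 downregulated.

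**Figure D3:**
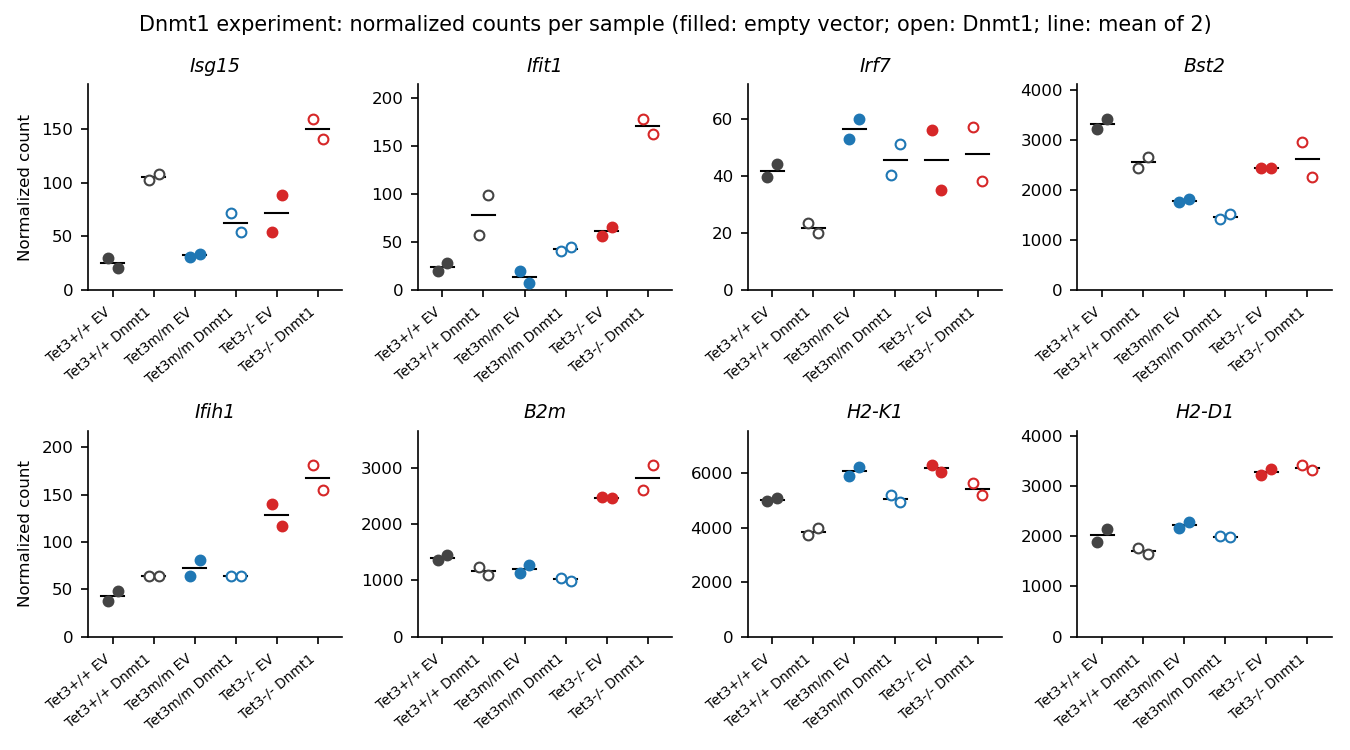
Normalized counts of 8 genes in the Dnmt1 experiment (y axis, from 0), with filled points for the EV, open points for Dnmt1 and a line at the mean of 2 samples, by genotype and vector (x axis). Open points lie above filled ones within each genotype for Isg15 and Ifit1, and red Tet3-/- points lie above all others for B2m and H2-D1.

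Ifih1 was counted at 37.5 and 48.7 in Tet3+/+ EV cells, 64.0 and 80.7 in Tet3m/m and 139.7 and 116.4 in Tet3-/-. The 3 genotypes did not overlap. Its log2 change was 1.55 (SE 0.25, adjusted p = 2.03e-05) in Tet3-/- and 0.74 (SE 0.25, adjusted p = 0.0194) in Tet3m/m cells. The Tet3m/m call rested on single libraries: without Tet3m/m EV replicate 2, or without the first Tet3+/+ EV column, it was lost, as it was with the compared groups alone, and its adjusted p ranged up to 0.156.

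Isg15 was counted at 29.6 and 20.9 in Tet3+/+ EV cells, 31.1 and 33.9 in Tet3m/m and 53.6 and 88.9 in Tet3-/-. Both Tet3-/- samples were above the rest, and Isg15 rose by 1.44 on the log2 scale (SE 0.30, adjusted p = 0.000415). Ifit1 stood at 19.8 and 27.8 in Tet3+/+, 20.1 and 7.8 in Tet3m/m and 56.8 and 65.6 in Tet3-/- EV cells. The Tet3+/+ and Tet3m/m values overlapped. In Tet3-/- cells Ifit1 rose by 1.34 (SE 0.38, adjusted p = 0.00569), a call that was lost without the first Tet3+/+ EV column (adjusted p = 0.0608).

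B2m was counted at 1362 and 1454 in Tet3+/+ EV cells, 1141 and 1269 in Tet3m/m and 2489 and 2462 in Tet3-/-. It rose by 0.81 (SE 0.08, adjusted p = 3.58e-08) in Tet3-/- and differed by -0.23 (adjusted p = 0.0278) in Tet3m/m cells, under the fold threshold. H2-D1 was counted at 1894 and 2145, 2163 and 2279, and 3222 and 3340 in the same order. Tet3-/- samples were again clear of the rest, with a log2 change of 0.70 (SE 0.06, adjusted p = 9.36e-09). H2-K1 had smaller differences, from 4979 and 5100 in Tet3+/+ to 5913 and 6229 in Tet3m/m and 6298 and 6069 in Tet3-/-. Its log2 changes of 0.27 (adjusted p = 0.000271) and 0.30 (adjusted p = 8.37e-05) passed the p threshold but not the fold threshold. Irf7 was at 39.5 and 44.1, 53.0 and 59.9, and 56.0 and 34.9, and was not called.

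Bst2 was at 3213 and 3420 in Tet3+/+, 1762 and 1814 in Tet3m/m and 2438 and 2432 in Tet3-/- EV cells. The groups were well apart. It fell by 0.89 on the log2 scale (SE 0.09, adjusted p = 1.85e-08) in Tet3m/m, and its change of -0.44 (adjusted p = 0.000165) in Tet3-/- was under the fold threshold. The median log2 ratio of chromosome 8 genes was -0.44 in both Tet3m/m and -0.37 to -0.36 in the Tet3-/- EV samples. After centring by chromosome, the Bst2 changes were -0.45 (adjusted p = 0.0002) in Tet3m/m and -0.06 (adjusted p = 0.592) in Tet3-/- cells. The centred Tet3m/m change thus still passed the p threshold but not the fold threshold.

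Hence 5 of 8 genes were called higher and 0 lower in Tet3-/- EV cells, where 24.9% of 18055 genes were called, 11.0% higher and 13.9% lower. In Tet3m/m EV cells 1 of 8 was called higher and 1 lower, against 21.2% of all genes called, 10.3% higher and 10.9% lower. Groups did not overlap for 7 of 8 genes in either comparison, against 77.1% and 72.3% of all genes, so separation alone did not set these genes apart. Both comparisons share the Tet3+/+ EV samples.

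**Figure D4:**
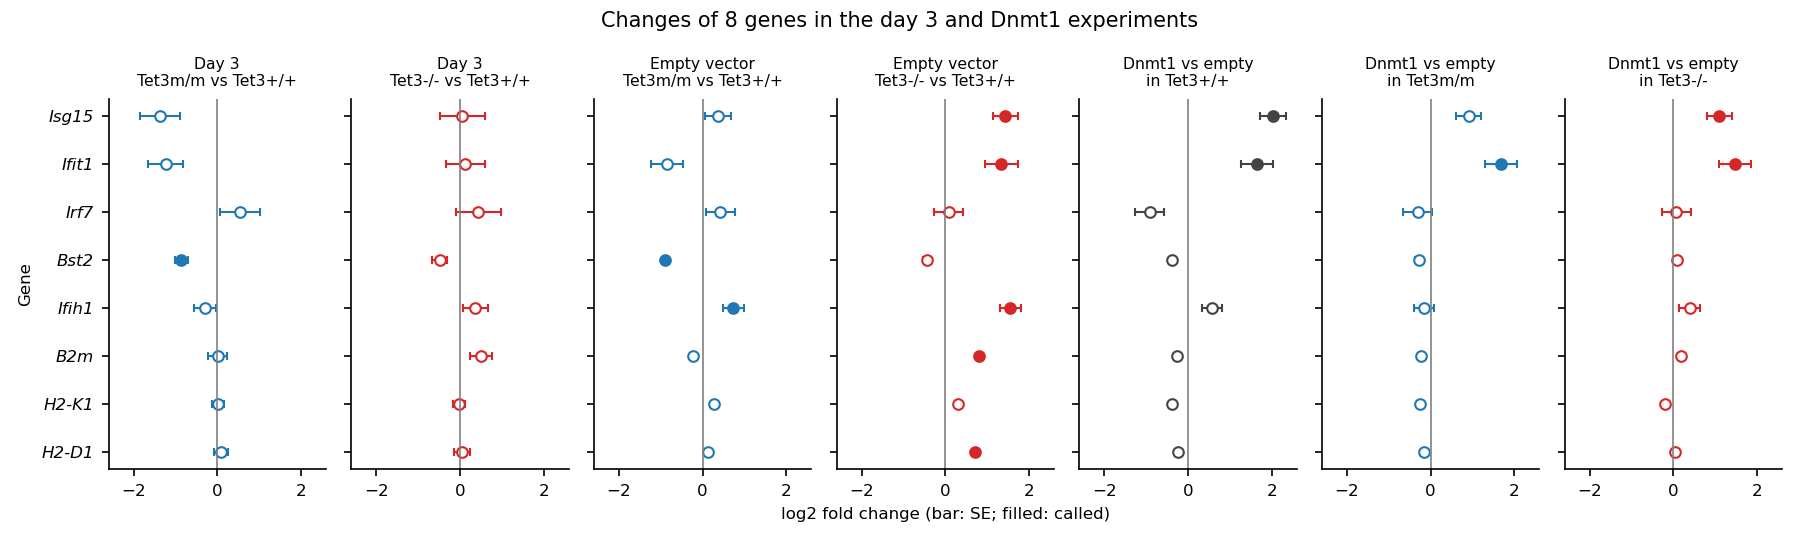
Log2 fold changes of 8 genes (x axis) with SE bars in 7 comparisons of the day 3 and Dnmt1 experiments, with called changes as filled points. Isg15 and Ifit1 lie at 0.91 to 2.03 in all 3 Dnmt1 comparisons, whereas Bst2, B2m, H2-K1 and H2-D1 stay within -0.38 to 0.19 there.

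Of the further pathway genes, more were called higher than lower in both mutant EV groups. The shares of all genes called higher and lower were 10.3% and 10.9% in Tet3m/m and 11.0% and 13.9% in Tet3-/- cells. Of 55 other effectors, 20 were called higher and 3 lower in Tet3m/m (median log2 change 0.47) and 15 higher and 6 lower in Tet3-/- cells (0.34). The largest in Tet3m/m were Xaf1 (2.31), Ifitm1 (1.98) and Rtp4 (1.88), and Ifit2 (-1.38) and Lgals3bp (-0.98) were lower. In Tet3-/- cells the GTPase gene Gbp2 (1.76) and Rtp4 (1.51) were among the higher, and Oasl1 (-3.16), Phf11d (-3.03) and Slfn9 (-2.09) among the lower genes. Tapbp (1.28) and Tap1 (0.95) rose in Tet3-/- cells, whereas Psmb8, an immunoproteasome subunit that trims peptides for class I, fell by 1.08. In Tet3m/m EV cells Psmb9 (0.95) and Psmb8 (0.84) rose and Tap1 fell by 0.82. Of 31 further class I genes, 11 were called higher and 1 lower in Tet3m/m and 7 higher and 4 lower in Tet3-/- cells. H2-T23, which encodes a nonclassical class I chain, was the largest rise in both (2.90 and 1.81). Signalling genes were called higher 1 time and lower 2 times of 25 in Tet3m/m and 6 and 1 times in Tet3-/- cells, with Il10rb (1.33) and the feedback inhibitor Usp18 (1.31) leading the latter. Among 19 other sensors and adaptors, 3 were called higher in Tet3m/m, among them Zbp1 (2.52), and 4 higher and 2 lower in Tet3-/- cells, with Ikbke (2.00) and the RIG-I gene Ddx58 (1.17) higher and Aim2 (-1.87) lower. Of 8 class II genes, 2 were called higher in Tet3m/m (H2-Ab1, 1.15, and H2-DMa, 1.10) and 1 higher and 2 lower in Tet3-/- cells.

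Beside these values, the leukocyte sum was 2174 to 2186 in Tet3m/m, 593 to 612 in Tet3+/+ and 564 to 652 in Tet3-/- EV cells. The fibroblast sum was 42290 to 42672 in Tet3-/-, 23250 to 24676 in Tet3+/+ and 12965 to 13573 in Tet3m/m cells. The part of these markers, and of the pluripotency and endoderm markers above, in the gene changes was not tested.

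The effect of Dnmt1 was then examined within each genotype. Of the members tested, only Isg15 and Ifit1 were called, and all their values with Dnmt1 exceeded the EV values of the same genotype. Such separation was common, as groups did not overlap for 52.0% to 53.5% of all genes. Isg15 went from 29.6 and 20.9 to 102.2 and 107.8 in Tet3+/+, from 31.1 and 33.9 to 71.5 and 53.7 in Tet3m/m, and from 53.6 and 88.9 to 159.2 and 140.4 in Tet3-/- cells. No sample with Dnmt1 overlapped its EV group. It rose by 2.03 on the log2 scale in Tet3+/+ (SE 0.30, adjusted p = 0.000422) and by 1.10 in Tet3-/- cells (SE 0.30, adjusted p = 0.018), and its change in Tet3m/m, 0.91 (SE 0.30, adjusted p = 0.0602), did not pass. Ifit1 went from 19.8 and 27.8 to 57.5 and 98.7 in Tet3+/+, from 20.1 and 7.8 to 41.1 and 45.0 in Tet3m/m, and from 56.8 and 65.6 to 178.5 and 163.0 in Tet3-/- cells. It rose in all 3 genotypes, by 1.64 (adjusted p = 0.0139), 1.69 (adjusted p = 0.00615) and 1.47 (adjusted p = 0.0135), each with an SE of 0.38.

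The Isg15 call in Tet3+/+ cells was kept with any library left out. The others depended on single libraries. The Ifit1 call in Tet3+/+ was lost without the first EV column or Dnmt1 replicate 2 (adjusted p up to 0.178), and in Tet3m/m without EV or Dnmt1 replicate 2 (up to 0.125). In Tet3-/- cells the Isg15 call was lost without EV replicate 1 or either Dnmt1 replicate (up to 0.213), and the Ifit1 call without either EV replicate or Dnmt1 replicate 2 (up to 0.0898). In all these fits the log2 changes stayed positive, between 0.74 and 2.32.

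The order of the Isg15 means was Tet3+/+ EV 25.3, Tet3m/m EV 32.5, Tet3m/m Dnmt1 62.6, Tet3-/- EV 71.2, Tet3+/+ Dnmt1 105 and Tet3-/- Dnmt1 150. Neighbours overlapped in 1 case, Tet3m/m with Dnmt1 and Tet3-/- with the EV. Ifit1 had a like order, with means of 14.0 in Tet3m/m EV, 23.8 in Tet3+/+ EV, 43.1 in Tet3m/m Dnmt1, 61.2 in Tet3-/- EV, 78.1 in Tet3+/+ Dnmt1 and 171 in Tet3-/- Dnmt1 cells. Here the lowest pair overlapped, and the Tet3+/+ Dnmt1 values of 57.5 and 98.7 overlapped the Tet3-/- EV values. Both genes were highest where the knockout and Dnmt1 were combined.

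The antigen-presentation genes and Bst2 did not follow. H2-K1 was at 3725 and 3997 with Dnmt1 against 4979 and 5100 with the EV in Tet3+/+, at 5196 and 4934 against 5913 and 6229 in Tet3m/m, and at 5639 and 5223 against 6298 and 6069 in Tet3-/- cells. It was lower with Dnmt1 in each genotype, without overlap. The log2 changes of -0.38 (adjusted p = 0.000195), -0.26 (adjusted p = 0.00256) and -0.19 (adjusted p = 0.0219) passed the p threshold, and none reached a 1.5-fold change. Bst2 was at 2448 and 2650 with Dnmt1 in Tet3+/+ (log2 change -0.38, adjusted p = 0.0105) and at 1414 and 1526 in Tet3m/m cells (-0.28, adjusted p = 0.0377), both below their EV samples and under the fold threshold. In Tet3-/- cells its Dnmt1 values of 2953 and 2263 enclosed the EV values. H2-D1 was at 1772 and 1643 with Dnmt1 in Tet3+/+ (-0.24, adjusted p = 0.031), at 2003 and 1982 in Tet3m/m and at 3412 and 3320 in Tet3-/- cells. B2m was at 1248 and 1102, 1051 and 998, and 2602 and 3049. Irf7 was at 23.4 and 20.1 with Dnmt1 in Tet3+/+ cells, below the EV values of 39.5 and 44.1, with a log2 change of -0.91 (SE 0.35, adjusted p = 0.136) that did not pass. Ifih1 was at 63.9 and 64.5, 64.4 and 64.1, and 180.9 and 154.7, and was not called in any genotype.

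With Dnmt1, 2 of 8 genes were called in Tet3+/+ (1.17% of all genes), 1 in Tet3m/m (2.46%) and 2 in Tet3-/- cells (3.53%), all of them higher. The shares of all genes called higher were 0.421%, 1.78% and 2.51%, and those called lower 0.753%, 0.681% and 1.02%. Groups did not overlap for 8, 7 and 5 of the 8 genes, against 52.7%, 53.5% and 52.0% of all genes. Of 55 other effectors, 0 were called higher and 1 lower in Tet3+/+ (Parp10, -0.64), 0 and 3 in Tet3m/m, with Ifi27 (-0.97) the largest, and 7 and 0 in Tet3-/- cells, led by Oasl1 (3.40) and followed by Gbp3 (1.28). The edgeR and DESeq2 tests also called 0 of the 55 higher in Tet3+/+ and Tet3m/m cells, where 9 and 14 had an unadjusted p under 0.05 in either direction and the medians of the list were -0.13 and -0.10, against 0.19 in Tet3-/- cells and 0.00 to 0.01 over all genes. Usp18 was called lower in Tet3+/+ cells (-0.95) and Psmb8, at 68.1 and 69.5 against 154 and 159, fell there by 1.17 (adjusted p = 0.000866). Beside these values, 6 of 8 pluripotency markers were called higher with Dnmt1 in Tet3-/- cells, with sums of 9078 to 9282 against 5893 to 6233 with the EV. In Tet3m/m cells 5 of 11 fibroblast markers were called higher, with sums of 12305 to 12786 against 12965 to 13573. The part of these markers was not tested.

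To ask whether the genotypes responded differently to Dnmt1, the difference of the responses was tested for each gene. None of the 8 genes was called by limma, edgeR or DESeq2 for Tet3m/m against Tet3+/+, where 0.604% of all genes were called (0.521% higher and 0.0831% lower) and 2 of 8 had an unadjusted p under 0.05. The response of Isg15 was lower by 1.12 on the log2 scale in Tet3m/m (SE 0.43, adjusted p = 0.286) and by 0.93 in Tet3-/- cells (SE 0.43, adjusted p = 0.194), which did not pass. For Tet3-/- against Tet3+/+, 0 of 8 were called by the same tests, against 3.99% of all genes (2.66% higher and 1.33% lower), and 5 had an unadjusted p under 0.05. B2m (0.45, SE 0.12, adjusted p = 0.0157) and Bst2 (0.47, SE 0.12, adjusted p = 0.0168) passed the p threshold but not the fold threshold. Both had negative log2 changes with Dnmt1 in Tet3+/+ cells and positive ones in Tet3-/- cells, 0.19 (adjusted p = 0.147) and 0.09 (adjusted p = 0.581). Of the partners, Psmb8 had the largest difference of the named ones (1.68, adjusted p = 0.000344). Of 55 other effectors, 8 had a higher and 0 a lower response in Tet3-/- than in Tet3+/+ cells, led by Gbp3 (1.48), Parp10 (1.17) and Gbp7 (1.02).

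The Tet3-CD experiment had 1 sample per genotype and vector. There is thus no replicate check and no test, and ratios of normalized counts have exact binomial 95% intervals that cover counting error alone. The intervals take each recovered read as independent. Most read numbers of the low genes were even, so both reads of a pair may have been counted. The intervals would then be too narrow. With the EV, the Tet3-/- sample exceeded the Tet3+/+ sample more than 1.5-fold for 8 of the 9 genes, against 15.4% of all genes. The Tet3-/- sample with Tet3-CD was below its EV sample for the same 8. It was past 1.5-fold lower for 7 of them, against 11.6% of all genes. Both counts use the single Tet3-/- EV sample, so a high value in it raises both. Among the 8 genes, Ifit3 reached the required mean of 10 only through its Tet3-/- samples (91.2 and 44.4, against 5.59 to 13.2 elsewhere). Its high Tet3-/- value was thus not independent of the filter.

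**Figure D5:**
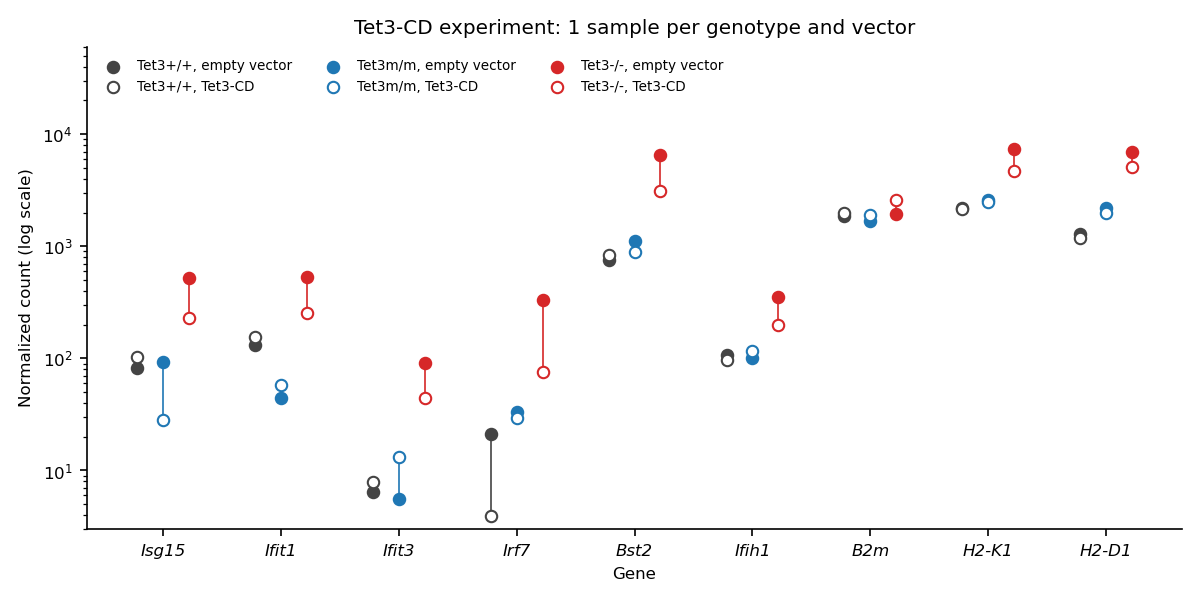
Normalized counts of 9 genes (x axis) in the Tet3-CD experiment on a log scale (y axis), with filled points for the EV and open points for Tet3-CD, 1 sample each. In Tet3-/- cells the filled points lie above those of the other genotypes for all 9 genes, least so for B2m (1948 against 1879 and 1693), and open points lie below the filled ones except for B2m.

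Among sensors and regulators, Irf7 was counted at 21.4 in Tet3+/+, 33.5 in Tet3m/m and 335 in Tet3-/- EV cells, a ratio of Tet3-/- to Tet3+/+ of 15.7 (95% interval 9.98 to 26). The Tet3m/m ratio was 1.57 (0.884 to 2.86), from 36 and 20 reads. With Tet3-CD it was at 3.95, 29.1 and 75.6, or 0.226 times the EV value in Tet3-/- cells (0.175 to 0.289). The Tet3+/+ ratio of 0.185 rested on 4 and 20 reads (0.046 to 0.552). Ifih1 was at 107, 101 and 351 with the EV and at 96.8, 116 and 200 with Tet3-CD. Its ratio of Tet3-/- to Tet3+/+ was 3.28 (2.62 to 4.14), and the Tet3-CD ratio in Tet3-/- cells was 0.571 (0.479 to 0.679).

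Each effector was highest in the Tet3-/- EV sample. Isg15 was at 82.3, 93.1 and 517 with the EV, a Tet3-/- to Tet3+/+ ratio of 6.29 (4.94 to 8.10), and at 102.7, 28.2 and 228 with Tet3-CD. It was lower with Tet3-CD in both mutants, with ratios of 0.303 (0.194 to 0.459) in Tet3m/m and 0.440 (0.376 to 0.514) in Tet3-/- cells. Ifit1 was at 130, 44.7 and 537 with the EV and at 154, 58.2 and 255 with Tet3-CD. The Tet3m/m EV sample was thus the low one, at 0.343 times Tet3+/+ (0.240 to 0.483), and the Tet3-CD ratio in Tet3-/- cells was 0.475 (0.409 to 0.551). Ifit3 was at 6.41, 5.59 and 91.2 with the EV and at 7.90, 13.2 and 44.4 with Tet3-CD. Its Tet3-/- to Tet3+/+ ratio of 14.2 (6.29 to 39.8) rested on 91 and 6 reads. Bst2 was at 757, 1112 and 6542 with the EV, a ratio of 8.64 (7.99 to 9.35), and at 839, 887 and 3131 with Tet3-CD, which gave 0.479 times the EV value in Tet3-/- cells (0.459 to 0.499). Relative to the 1 Tet3+/+ EV sample, the chromosome 8 median was -0.11 to 0.14 in the other samples of this experiment. That reference has no other Tet3+/+ EV sample to be checked against. The part of chromosome 8 in these Bst2 values was not tested.

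H2-K1 was counted at 2201, 2599 and 7433 with the EV and at 2146, 2469 and 4727 with Tet3-CD. The ratios were 3.38 (3.22 to 3.55) for Tet3-/- over Tet3+/+ EV cells and 0.636 (0.613 to 0.659) for Tet3-CD in Tet3-/- cells. H2-D1 was at 1298, 2209 and 6981 with the EV and at 1194, 1990 and 5065 with Tet3-CD, with ratios of 5.38 (5.06 to 5.72) and 0.725 (0.700 to 0.752), the latter under the 1.5-fold limit. B2m stood apart from its partner chains: it was at 1879, 1693 and 1948 with the EV, a ratio of 1.04 (0.971 to 1.11), and at 1966, 1917 and 2609 with Tet3-CD, a ratio of 1.34 (1.26 to 1.42) in Tet3-/- cells. In the Dnmt1 experiment B2m and H2-D1 were called higher in Tet3-/- EV cells, and H2-K1 was under the fold threshold. The tables were normalized separately and the vectors and times differ, so these ratios are set side by side without a test.

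Past 1.5-fold in the Tet3-/- over Tet3+/+ EV comparison lay 8 genes higher and 0 lower, against 15.4% and 11.7% of all genes. Ifit3, which passed the filter only through its Tet3-/- samples, is among the 8 and among the 7 lower with Tet3-CD. In Tet3m/m EV cells 2 were higher (Irf7 and H2-D1) and 1 lower (Ifit1), against 20.2% and 16.1%. With Tet3-CD, 0 were higher and 7 lower in Tet3-/- cells (9.89% and 11.6% of all genes), 1 higher and 1 lower in Tet3m/m (4.58% and 5.53%) and 0 higher and 1 lower in Tet3+/+ cells (6.11% and 7.3%). The median log2 ratio of the 9 genes was 2.43 in Tet3-/- against Tet3+/+ EV cells and -1.02 with Tet3-CD in Tet3-/- cells. Both comparisons share the Tet3-/- EV sample, so a high value in that sample enters both.

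Many of the remaining pathway genes were also high in the Tet3-/- EV sample. Of 55 other effectors, 45 were past 1.5-fold higher and 1 lower than in Tet3+/+ (median log2 ratio 1.79), and 3 were higher and 31 lower with Tet3-CD in Tet3-/- cells (median -0.61). Parp14 (4.12), Trim30a (3.85) and Rsad2 (3.77) had the largest log2 ratios between the EV samples, and Rtp4 (-1.94), Trim30a (-1.87) and Oasl1 (-1.76) the lowest with Tet3-CD. In Tet3m/m EV cells 29 effectors were higher and 5 lower than in Tet3+/+ (median 0.60). Of 25 signalling genes, 10 were higher and 1 lower in the Tet3-/- EV sample. The ratios of Tet3-/- to Tet3+/+ were 1.77 for Stat2, 2.18 for Irf9 and 2.01 for Irf1. With Tet3-CD in Tet3-/- cells, Stat2 (0.544) was lower, whereas Irf9 (1.02) and Irf1 (1.04) lay near their EV values. Of 30 class I genes, 16 were higher and 3 lower in the Tet3-/- EV sample, among them Psmb8 with a ratio of 7.84 (4.49 to 14.8), Tapbp (2.90) and Tap1 (2.36). In Tet3m/m EV cells 13 of the 30 were higher and 3 lower than in Tet3+/+, with ratios of 3.73 for Psmb8 (2.06 to 7.24), 1.91 for Tap1 and 1.60 for Tapbp, and Irf1 was at 1.92. Tap1 (1.01) and Tapbp (0.953) lay near their EV values with Tet3-CD in Tet3-/- cells, and Psmb8 was at 0.556 times. Among 18 other sensors, 8 were higher and 0 lower in the Tet3-/- EV sample, led by Ddx58 (2.11) and Tlr3 (1.97).

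Beside these ratios, the leukocyte sum was 1261 in the Tet3-/- EV sample, 1126 with Tet3-CD, 1454 in Tet3m/m and 535 in Tet3+/+ EV cells. The fibroblast sum was 28971 in Tet3-/-, 32440 in Tet3m/m and 44544 in Tet3+/+ EV cells. Past 1.5-fold higher in the Tet3-/- over the Tet3+/+ EV sample were 6 of 8 pluripotency markers, with 1 lower, and past 1.5-fold lower were 9 of 9 endoderm markers. With Tet3-CD in Tet3-/- cells 7 of 9 endoderm, 6 of 8 pluripotency and 5 of 8 neuroectoderm markers were past 1.5-fold lower. The endoderm sum was 55360 with the EV and 24353 with Tet3-CD there, the pluripotency sum 12413 and 7746, and the neuroectoderm sum 8903 and 14799. The part of these markers was not tested, and with 1 sample a group the genotype and the sample cannot be told apart.

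The level of Isg15 as RPM, reads scaled to library size, spanned 0.202 to 1.49 in the day 3 samples. It spanned 0.515 to 3.89 among the 12 samples of the Dnmt1 experiment and 0.805 to 14.6 among those with the Tet3-CD vectors. In the same order the ranges were 22.9 to 54.0, 33.9 to 84.3 and 21.2 to 185 for Bst2, 39.1 to 96.9, 24.0 to 72.7 and 48.2 to 73.8 for B2m, and 91.3 to 145, 91.3 to 154 and 60.2 to 210 for H2-K1. The highest levels of Isg15, Bst2 and H2-K1 all came from 1 sample, Tet3-/- with the EV of the Tet3-CD experiment. That of B2m came from Tet3-/- replicate 2 on day 3. The Tet3+/+ and Tet3m/m samples of the Tet3-CD experiment were at 21.2 to 31.7 for Bst2 and 60.2 to 74.0 for H2-K1.

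Likeness between the genes was described over the samples. After centring log2 values within each experiment, the Pearson correlation over 26 samples was 0.85 between Isg15 and Ifit1, both before and after leaving out the Tet3-CD experiment, and 0.91 between H2-K1 and H2-D1 (0.73 without it). All 28 pairs of the 8 genes in every table had positive values over the 26 samples, from 0.05 to 0.91. Without the Tet3-CD experiment, H2-K1 had negative values with Ifit1 (-0.24), Isg15 (-0.23) and Bst2 (-0.07, from 0.71). Irf7 then had negative values with Ifit1 (-0.23) and Bst2 (-0.21) and, as given below, with Isg15, while the other pairs stayed positive. Ifih1 had 0.72 with Isg15, 0.70 with Ifit1, 0.69 with B2m and 0.77 with H2-D1 (0.67, 0.64, 0.78 and 0.75 without the Tet3-CD experiment). B2m and H2-D1 had 0.52 with all samples and 0.84 without the Tet3-CD experiment. Irf7 and H2-K1 had 0.84, which was 0.60 without that experiment, and Isg15 and Irf7 had 0.24 and -0.38. These values describe samples that share genotype and vector. Of 16932 genes in all 3 tables, Ifit1 was the one most like Isg15, followed by the transferrin receptor gene Tfrc (0.81), Fah (0.81), Kazn (0.78) and Septin8 (0.76). Most like B2m were Yipf3 (0.95), Pbxip1 (0.94), Sfxn5 (0.94), Trafd1 (0.94) and Wdr26 (0.94), of which Trafd1 is itself an interferon-inducible gene.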

How the data were processed

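RNA-seq values of 26 samples were used, and the methylation, hydroxymethylation and CUT&Tag samples of the series were not used here. The authors trimmed reads with Trim Galore 0.6.7, aligned them with STAR 2.7.9a to the mouse genome (mm39 per the methods of the study), counted them with featureCounts and normalized them with DESeq2. The deposited signal values are these normalized counts, that is counts divided by a size factor. All values were whole multiples of what 1 read is worth (100% within 0.01), so reads were recovered. Of the genes listed, 17915 of 17948 (day 3), 18055 of 18091 (Dnmt1) and 17481 of 17705 (Tet3-CD) had a mean of at least 10 and were tested or compared.

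The log2 of the value plus 1 was fitted with limma 3.58.1 (R 4.3.3, empirical Bayes with a trend), with 1 fit per experiment over all its groups and Benjamini-Hochberg adjustment over all genes tested. Fold changes are on that log2 scale, which understates those of low genes. A gene was called when its adjusted p was below 0.05 and its change exceeded 1.5-fold. In the Dnmt1 experiment the 2 Tet3+/+ EV columns have no replicate number of their own and are named by their order. The alternatives comprised edgeR 4.0.16 and DESeq2 1.42.0 on the recovered reads, pseudocounts of 0.1 and 5, a minimum mean of 50 or none, TMM factors, the compared groups alone, no fold threshold, centring by chromosome, the replicate number as a block and each replicate left out. The limma, edgeR and DESeq2 fits were also run on simulated counts drawn with the same relative spread between samples for every gene. That setting does not cover genes whose spread in these samples is wider. Same-numbered replicates did not deviate together (correlations of -0.10 to 0.08 on day 3 and -0.05 to 0.03 in the Dnmt1 experiment). Chromosomes came from the GRCm38 annotation, matched by name for 92.3% of 18930 genes.

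The members, lists and tests were chosen with earlier results of these data known. Named genes are the 9 members, in each list the called genes, at most 3 per direction, with the largest change, 8 regulators or partners (Stat2, Irf9, Irf1, Nlrc5, Tap1, Tapbp, Psmb8, Psmb9), Tet3 and Dnmt1 as checks of the labels, the 5 genes most like Isg15 and B2m, and genes of marker lists that moved with a group. Another regulator under this rule is not reported here.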

Additional observations from a re-analysis of the deposited data

Results flagged for a closer look

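For B2m and Bst2 the response to Dnmt1 differed between Tet3-/- and Tet3+/+ cells by a test of the difference itself, by 0.45 (adjusted p = 0.0157) and 0.47 (adjusted p = 0.0168) on the log2 scale in the limma fit. Both differences are under the fold threshold of 1.5. B2m stood at 1248 and 1102 with Dnmt1 against 1362 and 1454 with the EV in Tet3+/+ cells (adjusted p = 0.0643) and at 2602 and 3049 against 2489 and 2462 in Tet3-/- cells. Bst2 stood at 2448 and 2650 with Dnmt1 against 3213 and 3420 in Tet3+/+ and at 2953 and 2263 against 2438 and 2432 in Tet3-/- cells, where the Dnmt1 values enclosed those of the EV. Its difference was 0.27 (adjusted p = 0.0503) without Tet3-/- Dnmt1 replicate 1 and 0.66 (adjusted p = 5.99e-05) without replicate 2. That of B2m ranged from 0.33 to 0.56 with each library left out, and the adjusted p reached 0.0969 for B2m (without Tet3+/+ Dnmt1 replicate 2) and 0.102 for Bst2 (without Tet3+/+ Dnmt1 replicate 1).

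Ifit3 had a log2 ratio of Tet3-CD to EV of 1.10 in Tet3m/m cells and -1.02 in Tet3-/- cells. As ratios of normalized counts these were 2.35 (interval 0.850 to 7.47) and 0.487 (0.335 to 0.700). The Tet3m/m interval, which covers counting error alone, includes 1, so the direction there is uncertain. Ifit3 reached the required mean of 10 only through its Tet3-/- samples. Each ratio comes from 1 pair of samples, with 14 and 6 reads in Tet3m/m and 47 and 91 reads in Tet3-/- cells. The difference between the genotypes was not tested.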

How the results depend on the processing

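Of 8 genes tested, the number called changed by over 1.5 times as follows. In Tet3m/m day 3 cells it was 1, and 0 after centring by chromosome. In Tet3m/m EV cells it was 2, and 4 with no fold threshold, 1 with the compared groups alone and 1 after centring. With Dnmt1 it was 2 in Tet3+/+ and 5 with no fold threshold, and 1 in Tet3m/m cells, 3 with no fold threshold and 2 with DESeq2, the second being Isg15 (adjusted p = 0.0481). For the difference of responses in Tet3-/- it was 0, and 2 with no fold threshold. With each replicate left out the counts ranged from 0 to 1 for Tet3-/- against Tet3m/m on day 3, 1 to 3 for Tet3m/m EV cells, 1 to 2, 0 to 2 and 0 to 2 for Dnmt1 in Tet3+/+, Tet3m/m and Tet3-/- cells, and 0 to 1 for the difference of responses in Tet3-/-. The case of 1 on day 3 was B2m without Tet3-/- replicate 1 (adjusted p = 0.049), and that of 1 in the responses came without Tet3-/- Dnmt1 replicate 2. Of 13 calls, 5 were kept in all alternatives (Isg15, Ifih1, B2m and H2-D1 in Tet3-/- EV cells and Isg15 with Dnmt1 in Tet3+/+). Of 42 changes that were under 1.5-fold and did not pass, 18 changed sign in some alternative. Counts in the Tet3-CD experiment kept within 1.5 times. Replicate numbers do not pair the samples. With the replicate number as a block, the count stayed at 1 on day 3 in Tet3m/m, 0 in Tet3-/- and, with Dnmt1, 1 in Tet3m/m and 2 in Tet3-/- cells. The EV Tet3+/+ columns have no numbers, so the other comparisons had no such fit.

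Over all genes, 115 were called on day 3 in Tet3-/- cells, against 64 and 223 with pseudocounts of 0.1 and 5, 58 with a mean of at least 50, 916 with DESeq2, 67 with TMM, 664 with the compared groups alone, 267 after centring and 0 to 706 with each replicate left out, so the background share there is uncertain. With no fold threshold the all-gene counts rose from 3831 to 8230 in Tet3m/m and from 4504 to 9612 in Tet3-/- EV cells, from 212 to 1010, 444 to 1842 and 638 to 2423 with Dnmt1 in Tet3+/+, Tet3m/m and Tet3-/- cells, and from 109 to 236 and 721 to 1753 for the differences of responses in Tet3m/m and Tet3-/-. With the compared groups alone they were 366 with Dnmt1 in Tet3+/+, 419 with Dnmt1 in Tet3-/- and 1154 against 1744 for Tet3-/- against Tet3m/m on day 3. With each replicate left out they ranged from 76 (without Tet3+/+ Dnmt1 replicate 1) to 294 with Dnmt1 in Tet3+/+, from 366 to 1025 (without Dnmt1 replicates 2 and 1) in Tet3-/- cells, from 474 (without Tet3+/+ Dnmt1 replicate 1) to 1086 (without Tet3-/- Dnmt1 replicate 1) for the difference of responses in Tet3-/-, and from 1146 (without Tet3m/m replicate 2) to 2210 for Tet3-/- against Tet3m/m on day 3. A mean of at least 50 left out Isg15, Ifit1 and Irf7 on day 3 and Irf7 in the Dnmt1 experiment. The precision of these genes is limited by their read numbers.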
